A study of Mus musculus with 8 samples.

Results

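The 10 genes described here make, modify or consume nicotinamide adenine dinucleotide (NAD) in the kidney. They are Nampt, Nmnat1, Nmnat3, Nadsyn1, Naprt, Nnmt, Nadk, Sirt1, Sirt3 and Cd38, chosen by name and found as 10 of the 34450 genes in the table of expression values. The kidneys were taken 3 days after ischaemia-reperfusion injury (IRI) from C57BL/6J mice aged 8 weeks. In this injury renal blood flow is stopped and restored. In the hypoxia group (4 libraries, 1 to 4) the mice were kept in low oxygen before the injury, and in the normoxia group (4 libraries, 5 to 8) in normal oxygen before the same injury. All 8 kidneys were injured, no uninjured kidney was analysed here, and no source used here gives the level or length of the hypoxia. The labels do not say that each library came from its own mouse, so p-values here reflect the spread among these libraries alone, and that spread may be technical.

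NAD carries electrons between metabolic reactions and is also consumed as a substrate. Enzymes that cut it release nicotinamide, which the salvage pathway turns back into NAD, while other routes start from nicotinic acid or from tryptophan. Proximal tubule cells, which depend on mitochondrial respiration, are known for a high demand for NAD, and renal NAD is known to fall after ischaemia.

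Values are FPKM, a fragment count scaled for transcript length and library size. Ribosomal RNA took between 13.5% and 72.5% of the assigned fragments of a library, and nuclear protein-coding genes took between 20.3% and 60.3%. The estimated depth was 8460000 to 14600000 fragments per library. The library least like the others was normoxia library 5 (mean Spearman correlation 0.633), against 0.767 to 0.832 for the rest. Hypoxia libraries 1 and 2 (Spearman correlation 0.924) and 3 and 4 (0.921) resembled each other more than libraries across those pairs (0.833 to 0.853). The labels do not say whether these are separate animals. Between the groups the correlations ran from 0.561 (hypoxia library 4 with normoxia library 5) to 0.867 (hypoxia library 1 with normoxia library 6).

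The summed FPKM of the 10 genes differed as widely within a group as between groups. It was 19.9, 21.6 and 20.7 FPKM in hypoxia libraries 3 and 4 and normoxia library 8, where protein-coding genes took 20.3% to 21.5% of the fragments. It was 50.8 and 76.6 FPKM in hypoxia libraries 1 and 2 and 62.5 FPKM in normoxia library 7, where they took 42.5%, 56.7% and 60.3%. Normoxia libraries 5 and 6 summed to 40.8 and 31.3 FPKM at shares of 56.8% and 28.6%. For description, values are also given as rescaled FPKM, the FPKM divided by the protein-coding fraction of the library. On that scale the sum of the 10 genes was 97.8 to 134.9 after hypoxia and 71.9 to 109.6 after normoxia.

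**Figure D1:**
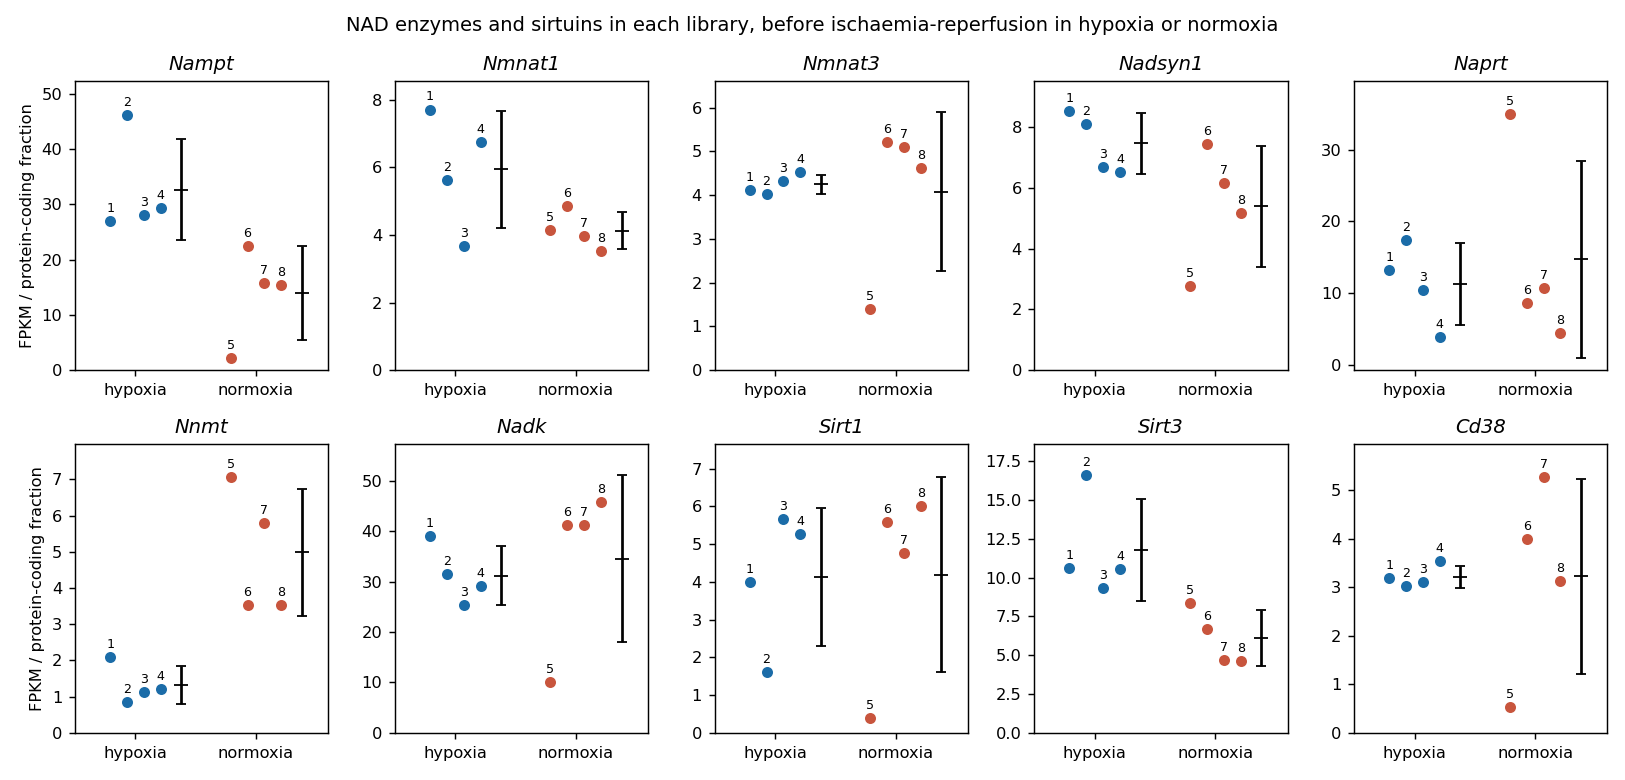
Rescaled FPKM (FPKM divided by the protein-coding fraction of the library) of the 10 genes; points are single libraries labelled by number, the bar to the right of each group is the mean with SD (n = 4). Nampt and Sirt3 were higher in every hypoxia library than in every normoxia library, Nnmt was lower, and normoxia library 5 lay apart for Nampt, Nmnat3, Nadk, Sirt1, Cd38 and Naprt.

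No member passed the test as deposited. With limma on log2(FPKM + 0.5), all 10 members were tested, and 0 were called at an adjusted p under 0.05, where 0.907% of the 14444 tested genes were called. At an unadjusted p under 0.05, 1 member (Nnmt, lower) was counted, where 9.36% of all tested genes were. The groups did not overlap for 0 of 10 members as deposited, against 4.92% of all tested genes. The median log2 change was -0.01 over the members and -0.14 over all tested genes. The same test was run after TMM scaling, which aligns libraries on the bulk of their genes, after scaling to protein-coding fragments, and after each of these without normoxia library 5. TMM scaling called 0 members, where it called 2.49% of all tested genes, and 1 higher and 1 lower had an unadjusted limma p under 0.05, as had 16.5% of all. With protein-coding scaling 0 were called (2.31% of all), and 2 higher and 1 lower had an unadjusted limma p under 0.05 (15.2% of all). TMM scaling without library 5 called 2 members higher (Nampt and Sirt3) and 1 lower (Nnmt), where it called 5.73% and 5.21% of all tested genes. Protein-coding scaling without library 5 called 1 higher (Sirt3) and 1 lower (Nnmt), beside 3.94% and 8.84% of all. The groups did not overlap for 2 members higher and 1 lower with TMM scaling (13.3% of all in either direction) and for 2 higher and 1 lower with protein-coding scaling (5.74% and 6.09%). With TMM scaling without library 5 they did not overlap for 3 higher and 1 lower, beside 13.6% and 11.9% of all tested genes, out of 10 members. With protein-coding scaling without library 5 they did not overlap for 2 higher (Nampt and Sirt3) and 3 lower (Nmnat3, Nnmt and Nadk), beside 8.29% and 19.7% of all tested genes. With TMM scaling and the hypoxia libraries averaged in their 2 pairs, 1 gene of all tested was called higher and 0 lower, and 0 members.

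**Figure D2:**
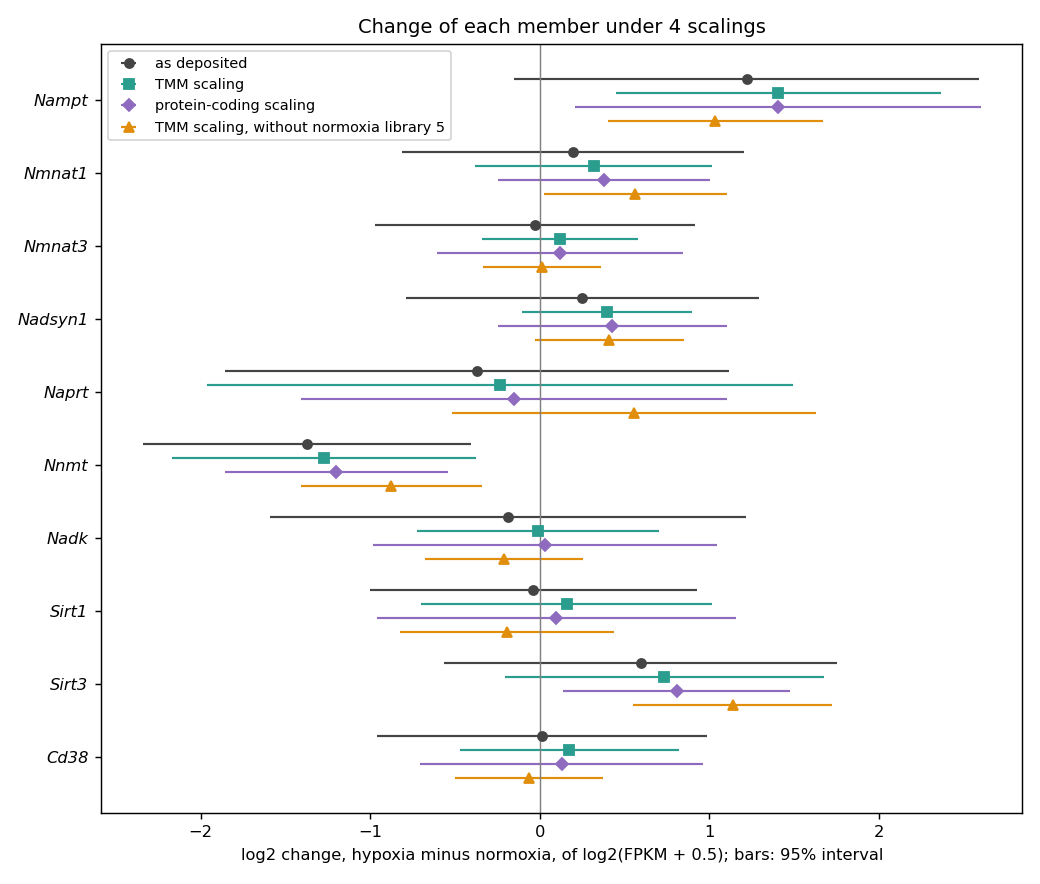
Log2 change (hypoxia minus normoxia, of log2(FPKM + 0.5)) of each member with its 95% interval from limma, as deposited, with TMM scaling, with protein-coding scaling, and with TMM scaling without normoxia library 5. With TMM scaling without library 5 the intervals of Nampt, Nmnat1, Sirt3 and Nnmt did not reach 0, that of Nmnat1 only just (0.03 to 1.10), and Nmnat1 was not called after adjustment.

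Nampt encodes nicotinamide phosphoribosyltransferase, the rate-limiting enzyme of salvage, which joins nicotinamide to phosphoribosyl pyrophosphate. The gene (ENSMUSG00000020572) lies on chromosome 12 from 32819545 to 32853349 on the plus strand (GRCm38, GENCODE M21). Its levels were 11.4, 26.2, 5.72 and 6.30 FPKM in hypoxia libraries 1 to 4, and 1.24, 6.42, 9.49 and 3.30 FPKM in normoxia libraries 5 to 8. On the deposited scale the groups overlapped, with hypoxia library 2 highest and normoxia library 5 lowest. As rescaled FPKM they were 26.9, 46.2, 28.1 and 29.4 after hypoxia and 2.18, 22.5, 15.7 and 15.4 after normoxia, so that every hypoxia library lay above every normoxia library. The means were 32.7 ± 9.09 and 13.9 ± 8.49 rescaled FPKM (SD, n = 4 each), and 17.9 ± 3.99 (SD, n = 3) after normoxia without library 5. The log2 change as deposited was 1.22 ± 0.67 (SE) and did not pass (limma adjusted p = 0.641). It was 1.41 with TMM scaling (limma adjusted p = 0.129) and 1.41 with protein-coding scaling (limma adjusted p = 0.241). Without normoxia library 5, TMM scaling gave 1.04 ± 0.28 (SE), just past the threshold (limma adjusted p = 0.0498), and protein-coding scaling gave 0.81, which did not pass (limma adjusted p = 0.0649). Of the 24 alternatives, 1 called Nampt, and its change was positive in each of them, from 0.75 to 1.59.

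The upstream sequences of Nampt and Sirt3 are shown because these were the members with higher rescaled FPKM in every hypoxia library, and because the groups differ in oxygen before the injury. RefSeq (GRCm38.p6) gave promoters for 8 of the 10 members. The windows are the 250 bases before the annotated start, 5′ to 3′, on chr12:32820085-32820334 (plus strand, inside the GENCODE span of Nampt) and chr7:140882310-140882559 (minus strand, directly upstream of the GENCODE span of Sirt3). Capitals mark GCGTG and ACGTG, the core of the hypoxia response element bound by hypoxia-inducible factors, on either strand.
Nampt: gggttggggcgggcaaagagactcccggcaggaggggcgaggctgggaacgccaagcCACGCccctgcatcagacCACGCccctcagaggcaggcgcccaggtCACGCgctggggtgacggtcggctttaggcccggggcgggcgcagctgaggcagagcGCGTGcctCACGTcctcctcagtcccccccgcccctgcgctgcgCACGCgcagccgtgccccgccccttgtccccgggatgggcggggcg
Sirt3: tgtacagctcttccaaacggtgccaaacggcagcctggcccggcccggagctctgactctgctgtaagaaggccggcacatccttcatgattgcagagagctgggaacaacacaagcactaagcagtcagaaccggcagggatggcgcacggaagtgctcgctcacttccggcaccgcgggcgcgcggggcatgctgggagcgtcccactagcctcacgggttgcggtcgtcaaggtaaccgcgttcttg
The Nampt window held 5 matches to GCGTG and 1 to ACGTG, and the Sirt3 window shown held 0. Another RefSeq window of Sirt3, not shown, and the windows of Nmnat1, Nadsyn1 and Cd38 held 0 as well. Members with smaller changes held cores too, 3 GCGTG and 3 ACGTG in 1 of the 2 windows of Nadk, 2 and 4 in that of Sirt1 and 1 GCGTG in that of Nmnat3. At least 1 of these cores stood in 38.6% of all 32851 RefSeq promoter windows of this length. No share was computed for windows with several matches. G and C made up 75.6% of the Nampt window, 79.2% of that of Sirt1 and 66.0% of the Nadk window with cores. They made up 62.4% of the Sirt3 window shown. CACGTG, the E-box bound by the circadian factors CLOCK and BMAL1, contains ACGTG and was absent from both windows shown, and 6.02% of all windows held it. The Sirt1 window held 2 copies of it and 1 window of Nadk held 1, each counted among the ACGTG matches on both strands. A match is a string of letters and not evidence of binding.

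Nmnat1 and Nmnat3 encode the nuclear and the mitochondrial adenylyltransferase that complete NAD from its mononucleotide. Nmnat1 measured 3.28, 3.20, 0.75 and 1.45 FPKM in hypoxia libraries 1 to 4 and 2.35, 1.39, 2.40 and 0.76 FPKM in normoxia libraries 5 to 8. The groups overlapped on the deposited and on the rescaled scale, where the means were 5.95 ± 1.73 and 4.13 ± 0.55 rescaled FPKM (SD, n = 4 each). The log2 change of Nmnat1 was 0.20, with a 95% interval from -0.81 to 1.21 (limma adjusted p = 0.999). With TMM scaling without library 5 it was 0.56 (95% interval 0.03 to 1.10, limma adjusted p = 0.174), and the groups still overlapped. Nmnat3 measured 1.75, 2.28, 0.88 and 0.97 FPKM after hypoxia and 0.79, 1.49, 3.08 and 0.99 FPKM after normoxia. As rescaled FPKM it lay in a narrow band of 4.02 to 4.52 in the hypoxia libraries and was 1.39 in normoxia library 5 and 4.61 to 5.21 in the other normoxia libraries. Its log2 change was -0.03 as deposited (95% interval -0.97 to 0.92, limma adjusted p = 0.999) and 0.12 with TMM scaling, so the direction turned with the scaling. Nmnat2, the Golgi-associated form best known from neurons, was listed at no more than 0.07 FPKM and was not tested.

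Naprt and Nadsyn1 serve the route from nicotinic acid, Naprt by making its mononucleotide and Nadsyn1 by the final amidation to NAD, a step shared with synthesis from tryptophan. Nadsyn1 measured 3.62, 4.59, 1.36 and 1.40 FPKM in hypoxia libraries 1 to 4 and 1.57, 2.13, 3.71 and 1.11 FPKM in normoxia libraries 5 to 8, and the groups overlapped. That gave a log2 change of 0.25 (95% interval -0.79 to 1.29, limma adjusted p = 0.999). With TMM scaling its groups no longer overlapped, and the change was 0.40 (limma adjusted p = 0.429). Naprt measured 5.65, 9.90, 2.12 and 0.82 FPKM after hypoxia and 19.9, 2.47, 6.49 and 0.96 FPKM after normoxia, with library 5 above every other library. Naprt had a log2 change of -0.37 (95% interval -1.86 to 1.12, limma adjusted p = 0.999), and without normoxia library 5 it turned to 0.31 (limma adjusted p = 0.959). Exons of Naprt share 277 of 2344 bases with Eef1d, a translation elongation factor gene on the same strand that reached 45.9 FPKM, and fragments in the shared bases cannot be told apart, so its level is uncertain.

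Nnmt encodes nicotinamide N-methyltransferase, which methylates nicotinamide and so removes it from salvage. The gene (ENSMUSG00000032271) lies on chromosome 9 from 48591877 to 48605153 on the minus strand (GRCm38, GENCODE M21). It measured 0.89, 0.49, 0.23 and 0.26 FPKM in hypoxia libraries 1 to 4 and 4.02, 1.01, 3.50 and 0.76 FPKM in normoxia libraries 5 to 8. Hypoxia library 1 lay above normoxia library 8 on that scale. As rescaled FPKM the hypoxia libraries held 2.09, 0.86, 1.13 and 1.21 and the normoxia libraries 7.08, 3.53, 5.81 and 3.54, so that the groups did not overlap. The means were 1.33 ± 0.53 and 4.99 ± 1.76 rescaled FPKM (SD, n = 4 each), and 4.29 ± 1.31 (SD, n = 3) after normoxia without library 5. The values rest on few fragments, an estimated 3 to 17 per hypoxia library and 11 to 87 per normoxia library. The log2 change as deposited was -1.37 ± 0.47 (SE) and did not pass (limma adjusted p = 0.202), and the pseudocount of 0.5 FPKM understates it at these low levels. It was -1.27 with TMM scaling (limma adjusted p = 0.142) and -1.20 with protein-coding scaling (limma adjusted p = 0.0686). Without normoxia library 5 it passed with TMM scaling, at -0.88 ± 0.23 (SE, limma adjusted p = 0.0487), and with protein-coding scaling, at -1.05 (limma adjusted p = 0.0276). These were the only 2 of its 23 alternatives that called it, and its change was negative in all of them, from -1.92 to -0.88.

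Nnmt is also known to be expressed in fibroblasts. The 8 fibroblast and pericyte markers summed to 29.5 to 65.4 FPKM in the hypoxia libraries and 110.6 to 338.3 FPKM in the normoxia libraries. The 9 macrophage and monocyte markers summed to 43.1 to 139.6 FPKM and 124.3 to 557.6 FPKM. Of these lists 0 of 8 and 0 of 9 markers were called by limma as deposited, beside 0.907% of all tested genes. At an unadjusted p under 0.05, 5 and 6 were lower, beside 9.36% of all tested genes in either direction. With TMM scaling 4 and 3 were called lower, beside 2.49% of all in either direction. The 3 macrophage and monocyte genes called were Adgre1, Cd68 and Lyz2. In that list Ptprc (-0.31) and Cd74 (-0.43) did not pass (limma adjusted p = 0.645 and 0.747 with TMM scaling). The 4 fibroblast and pericyte genes called were the collagen genes Col1a1, Col1a2 and Col3a1 and the smooth muscle actin gene Acta2. In the same list Dcn (0.34 as deposited, 0.52 with TMM scaling) and Pdgfra (0.15 and 0.33), which mark fibroblasts, had positive log2 changes that did not pass (limma adjusted p = 0.594 and 0.658 with TMM scaling). Adipocyte markers were uneven: Adipoq was listed at 0 in hypoxia libraries 1 and 2 and normoxia libraries 7 and 8, and at 2.46 FPKM in hypoxia library 3, while Lep was listed at 0 in all 8. None of the 7 lymphocyte markers reached a mean of 0.5 FPKM. The part of these cells in the level of Nnmt was not tested, and in whole kidney fewer cells of a type and less RNA per cell cannot be told apart.

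Nadk encodes the cytosolic NAD kinase, which makes NADP, the cofactor of reductive synthesis and antioxidant defence. It measured 16.6, 17.8, 5.14 and 6.23 FPKM in hypoxia libraries 1 to 4 and 5.73, 11.8, 24.9 and 9.82 FPKM in normoxia libraries 5 to 8. As rescaled FPKM the hypoxia libraries held 25.3 to 39.0, normoxia libraries 6 to 8 held 41.2 to 45.7, and normoxia library 5 held 10.1. The log2 change was -0.19 (95% interval -1.59 to 1.22, limma adjusted p = 0.999) and 0.03 with protein-coding scaling, so that its direction turned with the scaling. Without library 5, protein-coding scaling gave -0.45 (limma adjusted p = 0.165). Nadk2, which encodes the mitochondrial kinase, had means of 4.24 ± 3.23 (hypoxia) and 2.22 ± 1.43 FPKM (normoxia, SD, n = 4 each), with a log2 change of 0.66 that did not pass (limma adjusted p = 0.893).

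Sirt1 and Sirt3 encode NAD-dependent deacetylases, Sirt1 of the nucleus and cytosol and Sirt3 of mitochondria. Sirt1 measured 1.70, 0.91, 1.15 and 1.13 FPKM in hypoxia libraries 1 to 4 and 0.23, 1.6, 2.87 and 1.29 FPKM in normoxia libraries 5 to 8. The groups overlapped on both scales, with library 5 lowest. Its log2 change was -0.04 (95% interval -1.001 to 0.93, limma adjusted p = 0.999) and 0.16 with TMM scaling.

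Sirt3 measured 4.51, 9.43, 1.90 and 2.27 FPKM after hypoxia and 4.74, 1.92, 2.84 and 1.0 FPKM after normoxia, with overlap. As rescaled FPKM it was 10.6, 16.6, 9.34 and 10.6 in hypoxia libraries 1 to 4 and 8.35, 6.72, 4.71 and 4.66 in normoxia libraries 5 to 8, with no overlap. The means were 11.8 ± 3.28 and 6.11 ± 1.77 rescaled FPKM (SD, n = 4 each). The gene Sirt3 (ENSMUSG00000025486, chromosome 7 from 140863666 to 140882309, minus strand, GRCm38) had a log2 change of 0.60 ± 0.56 (SE) as deposited (limma adjusted p = 0.914), 0.74 with TMM scaling (limma adjusted p = 0.434) and 0.81 with protein-coding scaling (limma adjusted p = 0.225). Without normoxia library 5 it passed with both, at 1.14 ± 0.26 (SE, limma adjusted p = 0.0282) and 0.94 (limma adjusted p = 0.0327). Of its 24 alternatives these 2 called it, and the change was positive throughout, from 0.19 to 1.14. Exons of Sirt3 share 342 of 5973 bases with Psmd13, a proteasome subunit gene that reached 19.3 FPKM, and 418 with Ric8a, both on the opposite strand. The library kit kept strand, but no source used here says whether the counting used it, and without strand fragments in those bases cannot be told apart.

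Cd38 encodes an ectoenzyme that cleaves NAD and is abundant on immune cells. It measured 1.36, 1.72, 0.63 and 0.76 FPKM in hypoxia libraries 1 to 4 and 0.30, 1.14, 3.18 and 0.67 FPKM in normoxia libraries 5 to 8. As rescaled FPKM the hypoxia libraries held 3.03 to 3.54, inside the normoxia range of 0.53 to 5.28. Cd38 had a log2 change of 0.01 (95% interval -0.96 to 0.99, limma adjusted p = 0.999). As rescaled FPKM, the macrophage and monocyte markers summed to 200.9 to 328.4 after hypoxia and 578.7 to 973.0 after normoxia, and their part in the level of Cd38 was not tested.

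By median, the 5 highest members came in the same order in both groups, though not within every library. The order below them differed. By median rescaled FPKM, Nadk (30.2 after hypoxia, 41.2 after normoxia) and Nampt (28.7 and 15.6) were highest, followed by Naprt, Sirt3 and Nadsyn1 in both groups. In the hypoxia libraries Nadk and Nampt overlapped, and Nampt was the higher of the pair in 3 of 4 libraries. In the normoxia libraries Nadk was the higher in 4 of 4. There the medians of Sirt3 (5.71) and Nadsyn1 (5.66) were close, and Sirt3 was the higher in 1 of 4. After hypoxia Cd38 (3.15) and Nnmt (1.17) were last, and the ranges separated Nampt from Naprt, Sirt3 from Nadsyn1, Nmnat3 from Cd38 and Cd38 from Nnmt. Nmnat1 held rank 6 after hypoxia and rank 9 after normoxia, and Nnmt held ranks 10 and 8. After normoxia the ranges of all neighbours in the order overlapped, with library 5 included.

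A ratio of members within a library cancels the scaling between libraries except through the pseudocount, which weighs most on Nnmt. It does not cancel a trend with exon length within a library. The log2 ratio of Nnmt to Nampt (each FPKM + 0.5) was -3.10, -4.75, -3.09 and -3.16 in hypoxia libraries 1 to 4 and 1.38, -2.20, -1.32 and -1.59 in normoxia libraries 5 to 8, with every hypoxia library below every normoxia library. The difference was -2.59 (two-sided exact permutation p = 0.0286, adjusted p = 0.0571 over 4 ratios), and -1.82 without library 5 (exact permutation p = 0.0286, adjusted p = 0.0571). With a pseudocount of 0.1 FPKM the difference was -3.25, and with 1 FPKM it was -2.17. With each library's trend with exon length removed it was -2.42 (exact permutation adjusted p = 0.0571). The ratio of Cd38 to Nampt was -2.68, -3.59, -2.46 and -2.43 after hypoxia and -1.12, -2.08, -1.44 and -1.70 after normoxia, again with no overlap. Its difference was -1.21 (two-sided exact permutation p = 0.0286, adjusted p = 0.0571). As rescaled FPKM, Nnmt and Nampt each separated the groups, in opposite directions, so the separation of their ratio restates that. No share of gene pairs without overlap was computed, and the ratios were chosen with earlier results of these data known. Nnmt/Nampt and Cd38/Nampt share Nampt, and 0.0286 is the smallest p that 4 against 4 libraries can give, so neither passed after adjustment. Leaving out any 1 hypoxia library raised the exact permutation adjusted p of both ratios to 0.114.

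The ratio of Naprt to Nampt differed by -1.59 on the log2 scale (two-sided exact permutation p = 0.20, adjusted p = 0.267) and by -0.44 without library 5, which alone held 3.55. That of Sirt3 to Sirt1 differed by 0.63 (two-sided exact permutation p = 0.486, adjusted p = 0.486). Without library 5 it was 1.35, with an exact permutation p of 0.0571 (adjusted p = 0.0762).

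**Figure D3:**
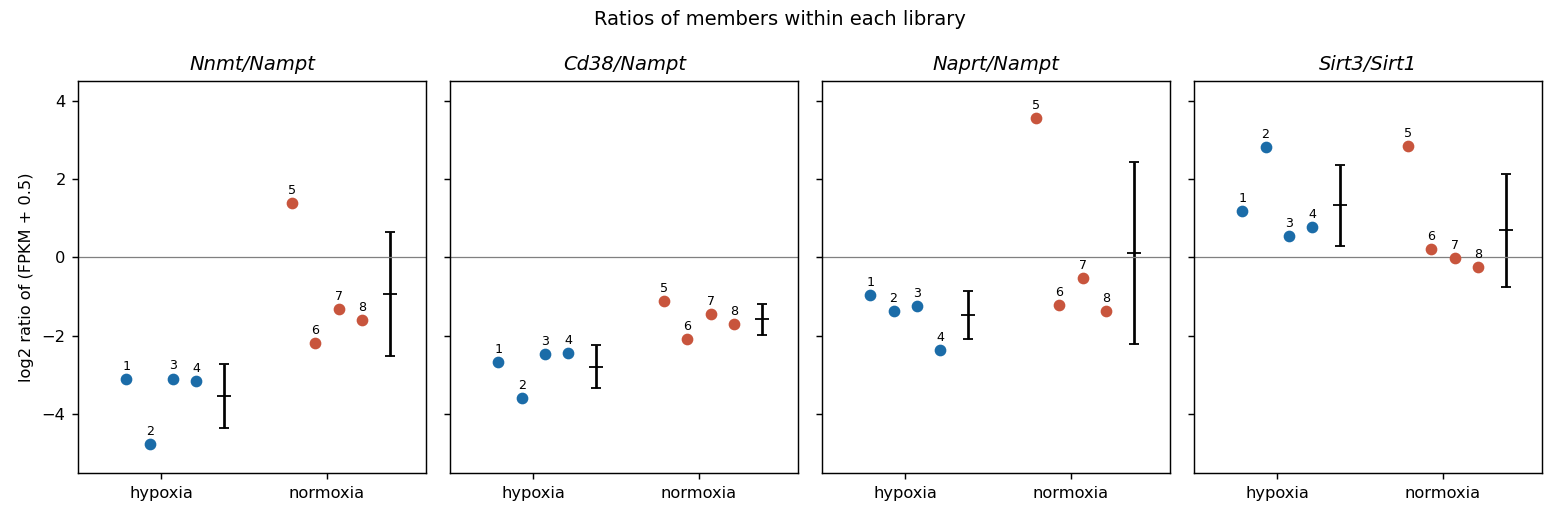
Log2 ratio of (FPKM + 0.5) between members of each library; points are libraries labelled by number, bars the mean with SD (n = 4). For Nnmt/Nampt and Cd38/Nampt the hypoxia libraries lie below all normoxia libraries, while normoxia library 5 sets the spread of Naprt/Nampt (3.55) and Sirt3/Sirt1 (2.84).

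Library 5 differed from the other normoxia libraries by gene. After protein-coding scaling it was lower for Nampt (-2.40 on the log2 scale), Nadk (-1.94), Sirt1 (-1.90), Cd38 (-1.49), Nmnat3 (-1.18) and Nadsyn1 (-0.86), and higher for Naprt (2.02), Nnmt (0.60) and Sirt3 (0.54). Exon length here joins all annotated exons of a gene and can exceed that of any 1 transcript. By this measure Naprt and Nnmt are the shortest of the 10 members (2344 and 1576 bases), while Sirt3 is the longest (5973 bases). Removing each library's trend with exon length called 0 of the 10 members, beside 204 higher and 250 lower of all 14444 tested genes. It gave log2 changes of 1.34 for Nampt (limma adjusted p = 0.136), -1.09 for Nnmt (limma adjusted p = 0.0676) and 0.68 for Sirt3 (limma adjusted p = 0.475).

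**Figure D4:**
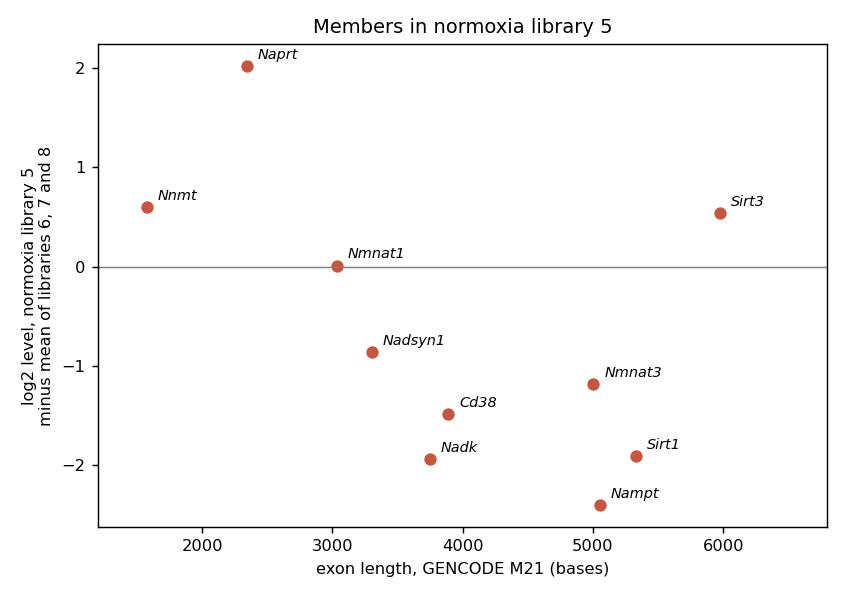
Log2 difference of normoxia library 5 from the mean of normoxia libraries 6, 7 and 8 after protein-coding scaling, against the exon length of each member in bases. Exon length joins all annotated exons of a gene. Naprt and Nnmt, the shortest, lay above 0, and the members from Nadsyn1 (3306 bases) upward lay below 0, except Sirt3 at 5973 bases.

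Of the 5 other sirtuins, 0 were called by limma as deposited, with TMM or protein-coding scaling, or with either scaling without library 5. At an unadjusted p under 0.05 as deposited, where 9.36% of all tested genes were counted, 1 was lower. That was Sirt6, a nuclear deacetylase of chromatin, at 0.49 to 1.51 FPKM after hypoxia and 0.71 to 10.9 FPKM after normoxia, where the highest value was again library 5 (log2 change -1.18, limma adjusted p = 0.528). Without library 5 the change of Sirt6 was -0.34 with TMM scaling (limma adjusted p = 0.418). The nucleolar Sirt7 had a log2 change of -0.56 and 12.6 FPKM in library 5, and without that library the change turned to 0.21 with TMM scaling (limma adjusted p = 0.544). The cytosolic Sirt2 (0.47) and the mitochondrial Sirt4 (0.37) and Sirt5 (0.35), the last a desuccinylase, had positive log2 changes that did not pass. The median of the list was 0.35, beside -0.14 for all tested genes.

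Of 13 tested gene models for other steps of salvage, transport, phosphorylation and repair, 2 rose and 0 fell as deposited. The shares called among all tested genes were 0.305% higher and 0.602% lower. Slc5a8, which encodes a sodium-coupled carrier of monocarboxylates and nicotinate, had means of 16.3 ± 7.49 (hypoxia) and 2.68 ± 2.37 FPKM (normoxia, SD, n = 4 each). The log2 change was 2.68 ± 0.65 (SE, limma adjusted p = 0.0456). All its hypoxia libraries (9.36 to 23.4 FPKM) lay above all normoxia libraries (0.45 to 4.82 FPKM). The other was 1 of 2 overlapping models of Nnt, the mitochondrial transhydrogenase, which is known to carry a deletion in C57BL/6J. That model (ENSMUSG00000116207) was at 2.93 to 22.5 FPKM after hypoxia and listed at 0 in normoxia libraries 5, 6 and 8 and at 7.85 FPKM in library 7. The second model (ENSMUSG00000025453) had a log2 change of -0.37 (limma adjusted p = 0.977). Fragments can be divided between these models, so the change of Nnt is uncertain.

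With TMM scaling Nudt12, an NADH-cleaving hydrolase of peroxisomes, also rose (log2 change 1.39, limma adjusted p = 0.0299). Without library 5 the urate and nicotinate exchanger gene Slc22a13 was added, at 4.18 (limma adjusted p = 0.00017). Slc22a13 was at 6.15 to 21.7 FPKM after hypoxia and at 0.11 to 0.38 FPKM in normoxia libraries 6 to 8, but at 18.0 FPKM in library 5. The riboside kinase gene Nmrk1 averaged 8.05 ± 4.69 and 8.16 ± 3.69 FPKM (SD, n = 4 each, log2 change -0.08, limma adjusted p = 0.999), and its muscle form Nmrk2 was listed at 0 in 7 libraries.

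The other NAD consumers include ADP-ribosyltransferases, which spend NAD on DNA repair and signalling. Of 15 tested, 0 were called by limma as deposited, beside 0.907% of all tested genes. At an unadjusted p under 0.05, 0 were higher and 1 was lower, beside 9.36% of all tested genes in either direction. The list median was -0.38, beside -0.14 for all tested genes. With TMM scaling without library 5, Parp14 (log2 change -1.11, limma adjusted p = 0.0287) and Parp3 (-0.95, limma adjusted p = 0.0462), both ADP-ribosyltransferase genes, fell, beside 5.21% of all tested genes. With that scaling 6 of the 15 had hypoxia libraries below all normoxia libraries, beside 11.9% of all tested genes. Protein-coding scaling without library 5 called 5 of the 15 lower, beside 8.84% of all tested genes, and 8 of the 15 were lower without overlap, beside 19.7%. In that fit the median over all tested genes was -0.17. Parp1, the main consumer of NAD upon DNA damage, averaged 3.90 ± 1.66 and 6.16 ± 4.47 FPKM (SD, n = 4 each, log2 change -0.45, limma adjusted p = 0.977). Without library 5 its groups did not overlap with either scaling, and it fell with protein-coding scaling (-0.74, limma adjusted p = 0.0353) but did not pass with TMM scaling (-0.51, limma adjusted p = 0.120). Bst1, a relative of Cd38, had a log2 change of -0.41 (limma adjusted p = 0.990), and without library 5 one of -0.69 with TMM scaling (limma adjusted p = 0.154).

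In the route from tryptophan, 2 of 8 tested genes rose as deposited and 0 fell, beside 0.305% and 0.602% of all tested genes. Aadat had a log2 change of 3.46 (limma adjusted p = 0.0327) and Ido2 one of 1.55 (limma adjusted p = 0.0457), and for both genes the groups did not overlap. Ido2 encodes a dioxygenase of the first step, and the Aadat product makes kynurenate, a side branch that does not lead to NAD. Further on, Qprt, which feeds quinolinate into NAD synthesis, had a log2 change of -0.45 (limma adjusted p = 0.994). Without library 5, which held 27.9 FPKM of Qprt, it turned to 0.34 with TMM scaling (limma adjusted p = 0.430) and 0.11 with protein-coding scaling (limma adjusted p = 0.806). Kmo, a hydroxylase on the way to quinolinate, had groups that did not overlap as deposited (1.80, limma adjusted p = 0.181). It passed with protein-coding scaling of all 8 libraries (2.02, limma adjusted p = 0.0396) and with TMM scaling without library 5 (2.33, limma adjusted p = 0.0174). Haao, which makes quinolinate, had a log2 change of 1.18 (limma adjusted p = 0.709). Haao passed with TMM scaling without library 5 (2.15, limma adjusted p = 0.0178).

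Among 14 regulators and partners of sirtuins and NAD synthesis, 0 were called by limma as deposited, beside 0.907% of all tested genes. At an unadjusted p under 0.05, 1 was higher, beside 9.36% of all tested genes in either direction. Ppargc1a, the coactivator of mitochondrial biogenesis, was at 6.99, 10.8, 6.04 and 8.86 FPKM in hypoxia libraries 1 to 4 and 1.04, 3.96, 3.48 and 2.61 FPKM in normoxia libraries 5 to 8, with no overlap on the deposited scale. Its log2 change was 1.48 ± 0.56 (SE, limma adjusted p = 0.291), and it passed with TMM scaling without library 5 (1.42, limma adjusted p = 0.0402). In that fit Sod2 (1.26, limma adjusted p = 0.0116) and Idh2 (1.44, limma adjusted p = 0.0279), whose mitochondrial products are known substrates of SIRT3, rose as well.

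The 12 proximal tubule markers summed to 806.0 to 1727 FPKM after hypoxia and 148.6 to 2003 FPKM after normoxia, the highest being library 5. As deposited, limma called 0 of 12, beside 0.907% of all tested genes. At an unadjusted p under 0.05, 1 of the 12 was higher, beside 9.36% of all tested genes in either direction. With TMM scaling without library 5 limma called 7 higher, beside 5.73% of all tested genes. The phosphate carrier gene Slc34a1 had a log2 change of 0.97 (limma adjusted p = 0.898), and without library 5, which held 340.0 FPKM, it rose with TMM scaling (1.71, limma adjusted p = 0.0402) with no overlap. Of 8 injury markers 4 were called lower as deposited, beside 0.602% of all tested genes. They were Sox9 (-2.14), Timp1 (-4.03), Cd44 (-2.46) and Krt20 (-3.10). Havcr1, the kidney injury molecule (-3.37), and Lcn2 (-2.97) had a limma adjusted p of 0.0855 each, and with TMM scaling without library 5 both were lower (-3.53, limma adjusted p = 0.0222, and -2.01, limma adjusted p = 0.0198). Of 9 thick limb and distal nephron markers 2 were called higher as deposited, beside 0.305% of all tested genes. Of the tested neutrophil (3), endothelial (6), adipocyte (3) and podocyte (5) markers 0 were called by limma as deposited, beside 0.907% of all tested genes. At an unadjusted p under 0.05, where 9.36% of all tested genes were counted, 3 neutrophil markers were lower. No endothelial, adipocyte or podocyte marker was counted. The part of tubular cell content or injury in the levels of Nampt, Sirt3 and Nnmt was not tested.

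Genes whose pattern over the 8 libraries was most like that of Nnmt, Nampt and Sirt3, the members with the smallest p, were sought by the root mean square difference of centred log2(FPKM + 0.5) values among 10348 genes. For Nnmt they were Lhpp (0.13), Mxra7 (0.18) and Arhgdib (0.19). For Nampt they were Slc25a16 (0.20), Grsf1 (0.21) and Clpx (0.21), whose products are a mitochondrial carrier, a mitochondrial RNA-binding protein and a mitochondrial protease subunit. For Sirt3 they were Echdc3 (0.10), Tmem116 (0.10) and Fahd2a (0.17). These are descriptions on the deposited scale, on which all genes share the differences in protein-coding content between libraries.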

How the data were processed

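Poly(A) RNA was measured in 8 stranded kidney libraries, per the labels' protocols. The submitters' processing notes list HISAT2, StringTie and edgeR, without roles. No source used here gives the build or annotation. The authors deposited FPKM, per the file headers, in 2 decimals, with no recorded scaling between libraries; read counts were not used here. Depth was taken from the most frequent low value of FPKM times exon length (1 fragment) in genes of 1 exon and 600 to 3000 bases, and carries no interval. Estimated fragments use GENCODE M21 exon lengths and are approximate.

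Log2(FPKM + 0.5) was tested in genes with a mean of at least 0.5 FPKM using limma 3.58.1 in R 4.3.3 (trended eBayes, two-sided, group as the only factor, Benjamini-Hochberg adjusted p under 0.05 over all tested genes). The pseudocount shrinks fold changes of low genes. The fit was tested on simulated data with the gene means and spreads of these libraries. The simulated spread was independent for each gene and library. It held no shift of a whole library, no outlying library and no paired hypoxia libraries, so its rates may not hold for these data. It recovered 1 of 68 genes with a log2 change of 1, 14 of 66 at 2 and 48 of 66 at 3. Of 65 genes it called, 2 were false. A member that was not called is therefore not shown to be unchanged. TMM scaling was unweighted, trimming 30% of ratios and 5% of levels. Alternatives were other pseudocounts, filters, scalings (quantile, protein-coding, loess removal of exon-length trends with span 0.5) and eBayes settings, and leaving out libraries. Added after seeing the data were protein-coding scaling without library 5, and TMM scaling after the length trend or without library 7. Ratios used an exact permutation test over 70 splits. Members, lists (15 beside the members, 138 genes, 137 in the table) and tests were chosen with earlier results of these data known. Named genes were all members, other sirtuins, genes fixed by name, up to 4 genes called per list (or, with none called, the 2 of smallest p), and 3 genes of most similar pattern for each of 3 members. Not all are printed. Replicate numbers (1 to 4 and 5 to 8) pair no libraries.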

Additional observations from a re-analysis of the deposited data

Results flagged for a closer look

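In 28 groups of 4 libraries (10 genes and 4 ratios, in each condition) 2 held a library far from the other three by Dixon's test, and chance flags about 1 in 20 such groups. The log2 ratio of Nnmt to Nampt was -4.75 in hypoxia library 2, the library with the highest Nampt, below -3.09 to -3.16 in the other hypoxia libraries. The log2 ratio of Sirt3 to Sirt1 was 2.84 in normoxia library 5, against -0.26 to 0.20 in the other normoxia libraries. The genes were taken on the deposited scale, so this count does not cover rescaled FPKM. On the rescaled scale normoxia library 5 lay apart for some genes, as for Nadk (10.1, against 41.2 to 45.7 in the other normoxia libraries).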

How the results depend on the processing

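No paired analysis was possible because the groups share no replicate numbers. Nampt, Nnmt and Sirt3 kept their direction under all alternatives run, and no member was called when any 1 library was left out of the deposited values (0 higher, 0 lower). Of all tested genes 44 were called higher and 87 lower as deposited. These counts were 171 and 188 with TMM scaling, 264 and 304 with quantile normalization, 146 and 187 with protein-coding scaling, 204 and 250 with the exon-length trend removed, and 219 and 259 with TMM scaling after that. They were 0 and 0 with no filter, 17 and 8 without a variance trend, and 74 and 201 at an adjusted p under 0.10. A pseudocount of 1 FPKM gave 47 lower. With TMM scaling they were 827 and 752 without normoxia library 5, 5 and 4 without normoxia library 7, and 1 and 0 with the hypoxia libraries averaged in pairs. Protein-coding scaling without library 5 gave 569 and 1277. Leaving out each library in turn gave 11 to 66 higher (26 without hypoxia library 2, 11 without normoxia library 7) and 5 to 226 lower (158 without hypoxia library 1, 44 and 54 without hypoxia libraries 3 and 4, 208, 5 and 226 without normoxia libraries 6, 7 and 8).

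Without library 5, TMM scaling called 2 members higher and 1 lower, and protein-coding scaling 1 and 1. TMM scaling without library 5 called 4 genes of other salvage steps, 2 NAD consumers (5 with protein-coding scaling without library 5), 4 genes of the tryptophan route, 3 regulators, 7 proximal tubule, 7 thick limb and distal (4 with library 5), 6 macrophage (3), 5 fibroblast (4) and 7 injury markers. Of all tested genes, TMM scaling without library 5 called 5.73% higher and 5.21% lower.

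Directions turned for the members with small changes. For Nmnat3 the log2 change was 0.12 with TMM scaling, with protein-coding scaling and with paired averages, 0.11 with quantile normalization and with TMM after the length trend, 0.090 with the length trend removed, 0.015 with TMM scaling without library 5 and 0.13 without library 7. For Sirt1 it was 0.068 at a pseudocount of 0.1 FPKM, 0.067 with the length trend removed, 0.16 with TMM scaling and with paired averages, 0.19 with quantile normalization, 0.10 with protein-coding scaling, 0.089 with TMM after the length trend and 0.20 with TMM scaling without library 7. For Naprt it was 0.56 and 0.35 with TMM and protein-coding scaling without library 5. For Nadk it was 0.032 with protein-coding scaling, 0.0015 with TMM after the length trend and 0.0018 with TMM scaling without library 7. For Cd38 it was -0.019 at a pseudocount of 1 FPKM, and -0.064 and -0.24 with TMM and protein-coding scaling without library 5. Leaving out each library gave -0.049 to 0.52 for Nmnat1, -0.22 to 0.27 for Nmnat3, -0.013 to 0.51 for Nadsyn1, -0.96 to 0.31 for Naprt, -0.50 to 0.18 for Nadk, -0.46 to 0.28 for Sirt1 and -0.30 to 0.43 for Cd38. The cause was not tested. Protein-coding fragments were 1720000 to 8780000 per library, which limits Nnmt most, at 3 or 4 estimated fragments in hypoxia libraries 3 and 4.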
